A study of Mus musculus with 54 samples.

Results

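Monomethylation of lysine 4 of histone H3 (H3K4me1) was followed across the first step of cardiac differentiation, from mouse embryonic stem cells (ESC, day 0) to mesoderm (MES, day 4). The regions described were chosen by presence in the deposited lists of enriched regions of 3 ESC and 3 MES libraries, on chromosomes 1 to 19 and X. The listed regions of the 6 libraries were joined into a union of 161153 regions. A region was called gained when it was listed in no ESC and all 3 MES libraries, lost when it was listed in all 3 ESC and no MES libraries, and kept when all 6 libraries listed it. By this rule 10914 regions were gained (6.77% of the union), 6775 were lost (4.20%) and 3534 were kept (2.19%). The 3 classes together held 21223 regions, and the other 139930 were listed in some but not all libraries of at least 1 stage. Because this rule uses presence of H3K4me1 in ESC and MES, the counts of gained, lost and kept regions are descriptions and carry no test.

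The study profiled 5 targets by ChIP-seq, in which crosslinked chromatin is precipitated with an antibody and the recovered DNA is sequenced, at 4 stages of a culture that leads from stem cells to heart muscle. All cells were of strain 129/Ola, were untreated by any other perturbation named in the labels, and were grown as embryoid bodies, small free-floating aggregates, in medium without serum. The aggregates were broken up and formed again with VEGF, Activin A and BMP4, and were later plated with VEGF, basic FGF and FGF10. After MES came a cardiac precursor stage (CP) at day 5.3 and a cardiomyocyte stage (CM) at day 10. H3K4me1 had 3 libraries at each stage. H3K27ac and H3K4me3 had 2 libraries at each stage. H3K27me3 had 2 ESC libraries and 3 for MES, CP and CM, and the Ser5-phosphorylated form of RNA polymerase II (RNAPII Ser5P) had a single ESC library and 2 for every stage after it. The labels call these stages by cell type, but each library is a bulk culture. A smaller share of cells carrying a mark and a weaker mark in every cell cannot be told apart in any result below. The labelled cell types were not checked against marker genes, since no gene annotation of the mm9 build of the lists was used here, and the regions are named by mm9 position only.

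H3K4me1 is placed by the MLL3 and MLL4 methyltransferases at enhancers, the distal sequences that regulate transcription, and it also flanks active promoters. An enhancer with H3K4me1 alone is usually called primed, and one that also carries acetylation of lysine 27 (H3K27ac) is usually called active. H3K4me3 marks promoters, RNAPII Ser5P is polymerase near the start of transcription, and H3K27me3 is the mark of Polycomb repression. Enhancers are the most cell-type-specific part of this landscape, and exit from pluripotency is known for their widespread exchange.

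The lists were of unequal size. The ESC libraries held 83818, 33958 and 43361 regions and the MES libraries 96999, 50215 and 48257, so replicate 1 had the longest list at both stages. Covered length was 38 ± 11.1 Mb for ESC and 53.9 ± 3.66 Mb for MES (SD, n = 3 each). The ranges of the libraries overlapped between stages. In an exact two-sided permutation test of 3 against 3 libraries, which cannot go below p = 0.1, covered length gave p = 0.2 (0.5 after Benjamini-Hochberg adjustment over 5 measures). The number of regions gave an exact permutation p of 0.5 (adjusted 0.625). The lowest listed peak height differed between lists, at 28, 39 and 35 in ESC and 25, 35 and 34 in MES, and read depth is unknown. Peak height is the authors' value for the highest point of a region. It was compared as a percentile within a library or after centring, apart from the listed heights given for named regions.

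Few regions were held in common by the 6 libraries. Of 13544 regions listed in all 3 ESC libraries, 50.0% were in no MES library and 26.1% were in all 3. Of 24077 regions listed in all 3 MES libraries, 45.3% were in no ESC library and 14.7% were in all 3. The remaining 23.9% of the first set and 40.0% of the second were listed in 1 or 2 libraries of the other stage. In addition, 46393 regions were listed in a single MES library and no ESC library, and 39986 in a single ESC library and no MES library. Replicate 1 supplied 72.5% of the former and 62.7% of the latter.

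The numbers depended on which libraries had to list a region. Without MES replicate 1 there were 16710 gained regions, and 22451 when replicate 1 was left out at both stages. Lost regions numbered 10452 without ESC replicate 1 and 13118 without ESC replicate 2, the shortest list. Gained regions outnumbered lost ones by 1.61 to 1 as called, and by less than 1 to 1 (0.856) when ESC replicate 2 was left out. With the 33958 highest regions of every library, 7390 were gained and 4048 lost, a ratio of 1.83. The excess of gained over lost regions therefore turned with 1 library.

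Gained regions were shorter than kept regions and longer than lost ones. The median union length was 1425 bases for gained, 1050 for lost, 2600 for kept and 325 for all other union regions. Lengths of 5 kb or more occurred in 217 gained regions (1.99%), 72 lost regions (1.06%) and 636 kept regions (18.0%). Joining more lists makes a union region longer, so the kept class, with 6 lists behind each region, is longer partly by construction.

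Peak heights ordered the classes in the same way in each library. In the MES libraries, the median gained region stood at percentile 68.1, 65.9 and 64.3 of its library (replicates 1, 2 and 3), and the median kept region at 77.7, 72.9 and 73.4. In the ESC libraries, the median lost region stood at percentile 54.7, 70.1 and 58.8, and the median kept region at 82.6, 81.0 and 77.2. The other regions had medians between 37.1 and 49.3 in the 6 libraries. Kept regions stood above gained and lost regions in each of the 6 libraries. This order is set in part by construction, since listing in 3 or 6 libraries favours high regions, and a union region takes the highest of its listed pieces, of which kept regions held 2.10 on average in ESC replicate 1 and 2.06 in MES replicate 1.

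**Figure D1:**
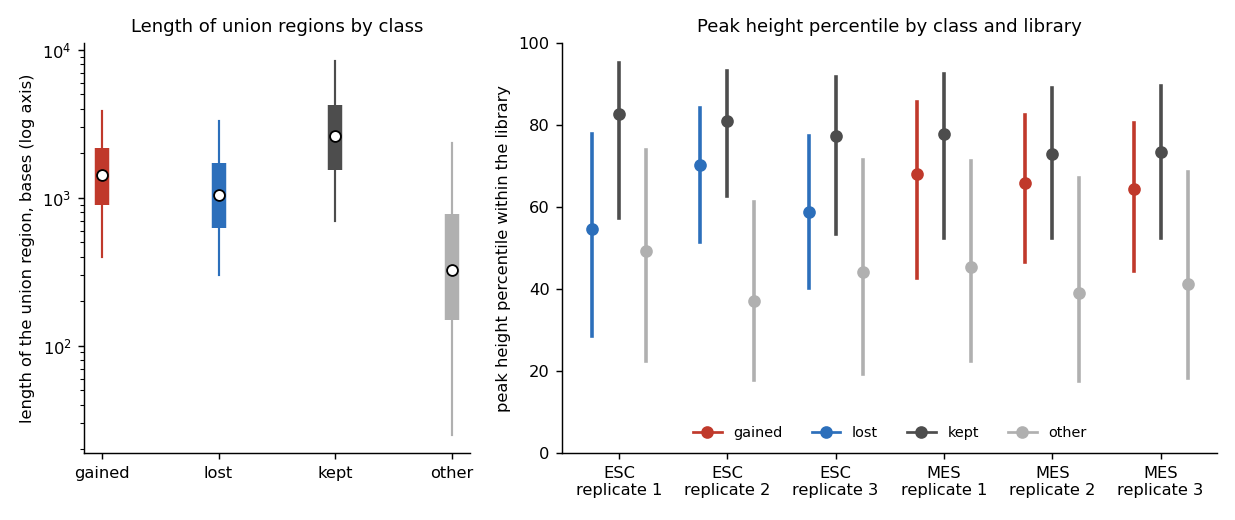
Left, length of union regions in bases on a log axis, where dots are medians, thick bars the middle 50% and thin lines the 5th to 95th percentile. Right, percentile of peak height within each library, where dots are medians and lines the middle 50%. Kept regions are longest (median 2600 bases) and highest in all 6 libraries, gained (1425 bases) and lost (1050 bases) lie between, and other regions are lowest.

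Regions close to the limits of the rule had intermediate values. Those with no ESC library and 2 of 3 MES libraries (11128) had a median length of 600 bases and a median percentile of 37.8, against 1425 bases and 64.9 for the gained ones. Those in all 3 MES and 1 of 3 ESC libraries (5760) had 1875 bases and percentile 78.3. On the other side, the 10907 regions in 2 of 3 ESC and no MES libraries had 525 bases and percentile 43.2, and the 1677 in all 3 ESC and 1 MES library had 1600 bases and percentile 75.1, around 1050 bases and 60.1 for the lost ones. Thus regions that missed the rule for want of 1 library were lower and shorter, and those that missed it through 1 listing in the opposite stage were higher and longer.

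The longest gained region lay at chr5:76397101-76410800 and spanned 13700 bases. Its peak height was 82, 141 and 127 in MES replicates 1, 2 and 3, at percentiles 94.8, 98.8 and 98.6. H3K27ac was listed there in neither ESC library and in both MES libraries, both CP libraries and 1 CM library, and no H3K4me3 was listed before CM. The second, chr6:91595076-91607500 (12425 bases), had heights of 125, 138 and 129, and likewise H3K27ac in no ESC and both MES libraries. The third, on chromosome 18 with 12275 bases, had H3K27ac in both libraries at MES, CP and CM but in none of ESC, and H3K4me1 in all 3 CP and all 3 CM libraries. These 3 longest regions thus acquired H3K27ac calls together with H3K4me1.

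The rest of the 6 longest gained regions carried H3K4me3 in both libraries at every stage, ESC included. They were chr19:41810801-41821825, chr5:24108026-24118425 and chr7:108069501-108079400, with lengths of 11025, 10400 and 9900 bases. The first of them also carried H3K27me3 in both ESC libraries and all 3 libraries at each later stage, the combination with H3K4me3 known as bivalent. In each of the 6 longest regions H3K27ac was listed in both MES libraries. This held for 24.7% of all gained regions and 10.1% of all union regions. Among gained regions of 5 kb or more, H3K27ac was listed at 94.5% and 74.7% in the 2 MES libraries, so the choice by length favours it.

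The gained region with the highest mean percentile was chr9:46762376-46767550 (5175 bases), with heights of 149, 197 and 167 in MES, each above percentile 99.9. A second region of the top 6 lay nearby at chr9:46719776-46727725, with heights of 129, 174 and 171. Both had H3K27ac in both MES libraries and in no ESC, CP or CM library, and H3K4me1 in 1 of 3 CP libraries. H3K4me1 was in 2 CM libraries at the former and in none at the latter. Their H3K27ac calls were therefore limited to MES. The second in rank, chr10:22002201-22004075 (1875 bases; heights 145, 179 and 170), had no H3K27ac in any library of any stage. It had H3K27me3 in 1 MES, 2 CP and 2 CM libraries. The remaining entries, chr9:107882976-107887875, chr8:122997101-123001700 and chr8:124796851-124805150, had H3K4me3 in both ESC libraries and H3K4me1 in every CP and CM library.

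Among lost regions the longest, chr17:30731126-30748925, stood apart from the others of its list. It spanned 17800 bases, with heights of 152, 209 and 164 in ESC replicates 1, 2 and 3, all above percentile 99.9, and no H3K4me1 was listed in any of the 9 later libraries. H3K27ac and H3K4me3 were nevertheless listed there in both libraries of every stage. The next, chr4:141229851-141240325 (10475 bases; heights 71, 104 and 86), had H3K27ac and H3K4me3 in both ESC libraries and in no later one, while H3K4me1 was listed again in all 3 CM libraries. The fourth, chr16:22389226-22398525 (9300 bases; heights 72, 98 and 86), also had both marks in both ESC libraries and neither in MES or CP. The rest of the list, chr9:114419876-114429550, chr13:98014876-98023800 and chr8:24272401-24281275, had H3K4me3 in both ESC libraries, and H3K4me1 again in 3, 2 and 0 of the CM libraries. All 6 of the longest lost regions carried H3K4me3 and RNAPII Ser5P in every ESC library. For H3K4me3 this held for 22.1% of all lost and 20.5% of all union regions. For RNAPII Ser5P, with its single ESC library, the shares were 26.9% and 11.1%. Among lost regions of 5 kb or more, H3K4me3 was listed at 94.4% and 77.8% in the 2 ESC libraries, so the choice by length favours it.

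The lost region with the highest mean percentile was chr15:74915801-74917575 (1775 bases), with heights of 163, 226 and 221 in ESC. It carried H3K4me3 in both ESC libraries and H3K27me3 in 1 of 2 ESC libraries and in each of the 9 MES, CP and CM libraries. At chr3:8245151-8246925 (heights 132, 153 and 128), H3K27me3 was likewise listed in 1 of 2 ESC libraries, in 2 of 3 MES libraries and all 3 of CP and of CM. These are exceptions, since only 20 lost regions (0.295%) had H3K27me3 in every MES library, against 3.12% of all union regions. The remaining entries of the list were chr17:30731126-30748925, described above, chr4:117691151-117693075, chr2:30191076-30193175 and chr8:93350651-93351150, and none of the last 3 carried H3K27me3 in any library.

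Whether the other targets followed H3K4me1 was asked with libraries that the rule had not used. H3K27ac was listed at 8.82% and 3.38% of gained regions in the 2 ESC libraries, and at 47.4% and 31.4% in the 2 MES libraries. At lost regions it was listed in 64.6% and 58.5% in ESC, and in 3.06% and 1.39% in MES. The ESC and MES libraries did not overlap in either class, and the direction was opposite. Over all union regions the shares were 27% and 16.8% in ESC and 23.5% and 13.5% in MES, with overlapping ranges. H3K27ac lists were also unequal in size, with 73186 and 32222 regions in ESC and 62772 and 25170 in MES, and replicate 1, the longer list, gave the higher share in each class.

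The gained share minus the lost share sets both classes against each other within a library. It was -55.8 and -55.1 percentage points in the ESC and 44.4 and 29.99 in the MES libraries for H3K27ac. It averaged -55.5 points in ESC and 37.2 in MES, a difference of 92.6 points (n = 2 libraries per stage). With an equal number of top H3K27ac regions in every library this difference was 62.9 points, and that at lost regions alone went from -59.3 to -39.3. The test was an exact permutation over all 8 libraries of the 4 stages, on the sum of squares between stages, which has no direction, with Benjamini-Hochberg adjustment over 16 tests. The exact permutation p was 0.00952 for the gained-minus-lost difference, the smallest that 2 libraries per stage allow, and an adjusted p of 0.0762. For gained regions alone the exact permutation p was 0.0190 (adjusted 0.102), and for lost regions 0.105 (adjusted 0.194). None of the 16 tests passed 0.05 after adjustment, so the shares are given as measured, with libraries that did or did not overlap.

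Region by region, 2069 gained regions (19%) had H3K27ac in no ESC and every MES library, against 2.66% of all union regions. Among lost regions 3145 (46.4%) had H3K27ac in every ESC and no MES library, against 6.06% of all. The opposite calls were rare, with 27 gained regions (0.247%) and 2 lost regions. H3K27ac was in no ESC or MES library at 4915 gained regions (45%) and 1741 lost regions (25.7%), against 56.4% of all union regions. Calls of the acetyl mark thus went with H3K4me1 at part of each class.

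Acetylation calls increased with the length of the H3K4me1 region. Among gained regions under 500 bases, 19.4% and 15.0% were overlapped by H3K27ac in the MES libraries, against 71.2% and 47.0% of those of 2000 to under 5000 bases and 94.5% and 74.7% of those of 5 kb or more. Among lost regions under 500 bases, 38.8% and 38.7% were overlapped in the ESC libraries, against 98.6% and 88.9% of those of 5 kb or more. Longer regions have more bases to overlap. In the single length class of 1000 to under 2000 bases, chosen after the values were seen, H3K27ac was listed at 8.18% and 3.01% of 4389 gained regions in ESC and at 43.2% and 27.8% in MES. For 2318 lost regions of this length the shares were 71.4% and 63.1% in ESC and 2.63% and 1.42% in MES. The difference in gained minus lost between MES and ESC was 95.1 points in this length class. It was 48.2 points under 500 bases, 69.8 from 500 to under 1000, 133 from 2000 to under 5000 and 161 at 5 kb or more.

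H3K4me3, the promoter mark, depended strongly on the size of its lists, which held 54528 and 42092 regions in ESC and 28880 and 22206 in MES. As listed, it was at 28.2% and 32% of lost regions in ESC and at 1.51% and 2.44% in MES. At gained regions it was listed in 12% and 11% in ESC and in 17.4% and 11.5% in MES, and these ranges overlapped. Of all union regions, 24.04% and 24.65% were overlapped by H3K4me3 in ESC and 15.44% and 16.58% in MES. In both ESC libraries the lost share was therefore somewhat above that of the union, and the gained share was below it. In MES the lost share was below that of the union in both libraries, and the gained share was above it in replicate 1 only. The exact permutation p was 0.114 for lost regions and 0.676 for gained ones (adjusted 0.194 and 0.721). By region, 1346 lost regions (19.9%) had H3K4me3 in every ESC and no MES library, against 6.41% of all union regions. Only 189 gained regions (1.73%) had the reverse, against 0.472% of all. With an equal number of top H3K4me3 regions in every library, the mean ESC share was 8.38% at lost and 7.94% at gained regions, and the lost share differed between MES and ESC by -6.55 points in place of -28.1.

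Most regions of both classes had no promoter mark. No H3K4me3 was listed in any ESC or MES library at 8637 gained regions (79.1%) and at 4194 lost regions (61.9%), against 69.8% of all union regions. H3K4me3 in every ESC and MES library was found at 887 gained regions (8.13%), 87 lost regions (1.28%) and 1511 kept regions (42.8%), against 12.2% of all. Gained regions also lay farther from such constant H3K4me3 places. Within 50 kb of any of the 17916 regions with H3K4me3 in every ESC and MES library lay 58.1% of gained, 78.3% of lost and 87.3% of kept regions, and 72.2% of all. The median distance was 36.1 kb for gained, 15.9 kb for lost and 0.650 kb for kept regions.

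RNAPII Ser5P had 1 ESC library, so its ESC values have no replicate. It was listed at 26.9% of lost regions in ESC, and at 1.12% and 7.32% in MES, and at 3.35% of gained regions in ESC, and 3.04% and 5.84% in MES. At kept regions it was listed in 38.3% in ESC and in 14.5% and 26.3% in MES. Over all union regions the shares were 11.1% in ESC and 4.20% and 8.27% in MES, above those of gained regions in each library. The lists held 48837 regions in ESC and 21031 and 37721 in MES. The exact permutation p at kept regions was 0.00952 (adjusted 0.0762). With an equal number of top RNAPII Ser5P regions in every library, the MES minus ESC difference at kept regions went from -17.9 to -7.94 points (exact permutation p = 0.229, adjusted 0.305), and at lost regions from -22.7 to -10.02. At gained regions the MES values lay on both sides of the ESC value (exact permutation p = 0.429, adjusted 0.527).

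H3K27me3 was rare at gained and at lost regions. It was listed at 3.58% and 0.788% of gained regions in ESC and at 5.18%, 4.04% and 2.36% in MES. At lost regions the shares were 0.148% and 0.0590% in ESC and 0.915%, 0.945% and 0.384% in MES. At kept regions they were 4.41% and 1.56% in ESC and 11.7%, 9.96% and 6.06% in MES. Exact permutation p-values were 0.493 for gained, 0.127 for lost and 0.148 for kept regions (adjusted 0.563, 0.194 and 0.198). The MES libraries also listed H3K27me3 at more of the whole union, 3.28% to 6.75% against 1.01% and 3.34% in ESC.

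**Figure D2:**
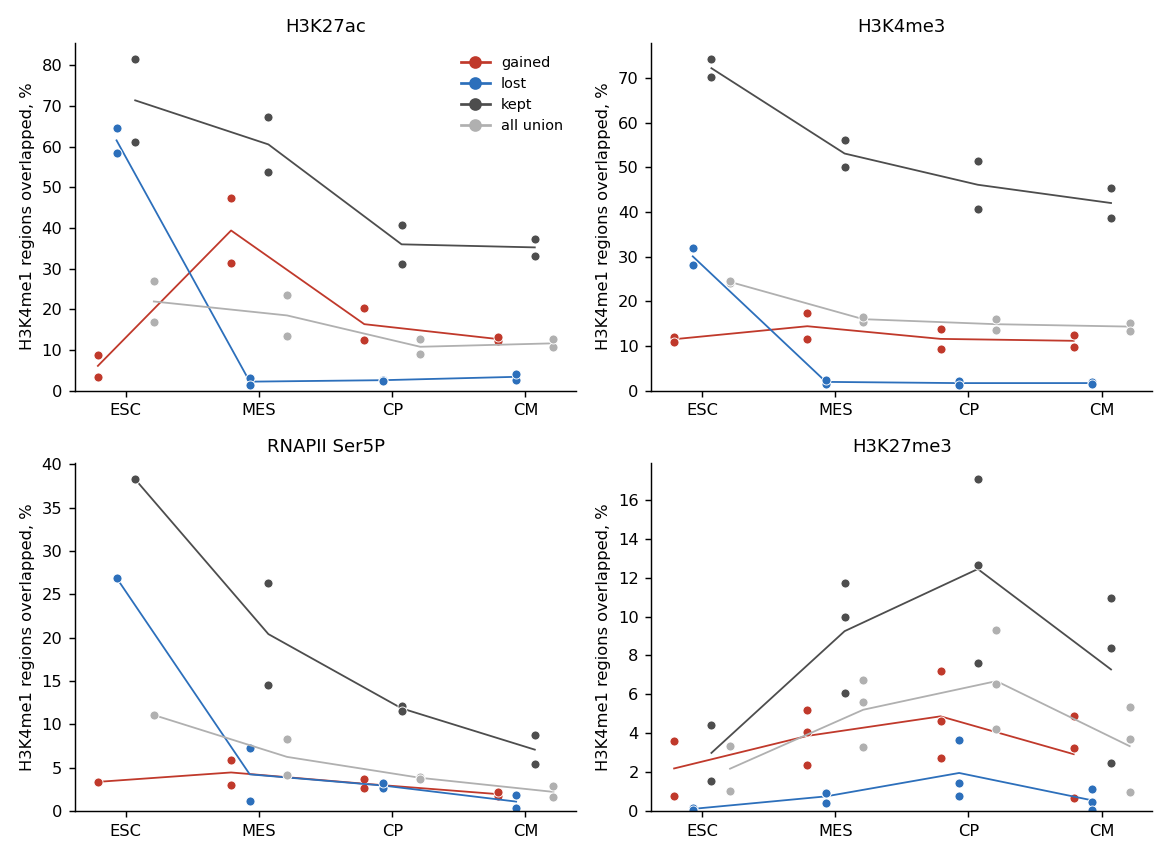
Percent of gained, lost, kept and all union H3K4me1 regions overlapped by each other target, by stage. Each dot is a library and lines join stage means. H3K27ac at gained regions is highest in MES (47.4% and 31.4%), while at lost regions H3K27ac, H3K4me3 and RNAPII Ser5P are highest in ESC.

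Part of each class had none of the 4 other targets in any ESC or MES library. This held for 4324 gained regions (39.6%) and 1324 lost regions (19.5%), against 46.3% of all union regions. Such gained regions were shorter and lower, with a median length of 1075 bases and a median percentile of 51. Their lost counterparts had 625 bases and percentile 43.2. At the other end, 644 gained regions (5.90%) carried both H3K27ac and H3K4me3 in every MES library, against 6.47% of all union regions, with a median percentile of 78.0. Both were in every ESC library at 1152 lost regions (17.0%), against 7.89% of all, with a median percentile of 76.2.

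Later stages were not used by the rule, and H3K4me1 at gained regions was followed into them. It was listed at 62.1%, 46.5% and 33.4% of gained regions in CP replicates 1, 2 and 3, and at 23.2%, 27.1% and 23.6% in the CM replicates. The CP and CM libraries did not overlap. The CP mean was 47.3 ± 14.4% and the CM mean 24.6 ± 2.16% (SD, n = 3 each), and the exact two-sided permutation p was 0.1, the smallest possible (adjusted over 3 classes, 0.3). The order of the CP replicates is that of their list sizes, 82089, 63165 and 31571 regions, and with the same number of top regions in every CP and CM library the difference between CM and CP went from -22.7 to -12.8 percentage points (exact two-sided permutation p = 0.1). It was -14.6 points without replicate 1. The lower share in CM was not particular to gained regions. At kept regions the difference in mean share between CM and CP was -21.5 points (exact two-sided permutation p = 0.2, adjusted 0.3), with overlapping libraries. Over all union regions the mean share was 23.7% in CP and 16.3% in CM, also with overlapping libraries. At lost regions the difference was 0.782 points, as given below. Because MES presence was required by the rule, MES and CP were not compared.

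By region, 1117 gained regions (10.2%) had H3K4me1 in every CP and every CM library, against 4.24% of all union regions. Another 3308 (30.3%) had it in no CP or CM library, and 863 (7.91%) had it in every CP and no CM library, against 57% and 2.02% of all. Gained regions with and without acetylation differed here. Of the 2694 (24.7%, against 10.1% of all union regions) with H3K27ac in every MES library, 82.3%, 66.4% and 46.5% were listed in the CP and 36.3%, 43.8% and 34.7% in the CM libraries. Of the 5008 (45.9%, against 73% of all) with H3K27ac in no MES library, these shares were 45.6%, 33.2% and 25.5% in CP and 14.5%, 16.4% and 15.8% in CM. The acetylated regions were higher in each of the 6 libraries, and they were also longer (median 2050 against 1075 bases) and stood at a higher percentile (80.7 against 51.7). The part of length and height in this was not tested.

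Gained regions that carried H3K4me3 throughout ESC and MES also had higher later shares. Among these 887 regions, H3K4me1 was listed in 89.1%, 76.9% and 37% in CP and in 48.5%, 69.7% and 37.7% in CM. Among the 8637 gained regions with no H3K4me3 in ESC or MES, it was listed in 55.7%, 40.0% and 30.5% in CP and in 18.2%, 20.1% and 19.8% in CM. In each library the set with H3K4me3 was higher. The gap was narrowest in CP replicate 3, the shortest list.

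Acetylation of gained regions was listed less often after MES. H3K27ac was at 20.2% and 12.5% of gained regions in CP and at 12.3% and 13.1% in CM, all below 31.4%, the lower MES library. In CM the shares were near those of all union regions, at 10.7% and 12.6%. A fall after MES was not particular to gained regions. Over all union regions H3K27ac was at 12.7% and 8.91% in CP, and the lower MES library had 13.5%. At kept regions it was at 40.8% and 31.2% in CP and 33.2% and 37.3% in CM, below 53.9%, the lower MES library. H3K27ac lists in CP and CM, at 27445 to 37824 regions, lay between those of the MES libraries (62772 and 25170).

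At most lost regions H3K4me1 was not listed again. Of the lost regions, 8.18%, 6.26% and 2.97% were listed in the CP and 5.82%, 7.22% and 6.72% in the CM libraries. In CP and CM together, 5662 (83.6%) were in no library, against 57% of all union regions. The mean difference between CM and CP was 0.782 percentage points (exact two-sided permutation p = 0.8, n = 3 each) and changed sign without replicate 3, to -0.701. H3K4me1 was listed again in every CM library at 223 lost regions (3.29%), 82 of which had it in no CP library, against 8.50% and 0.596% of all union regions. The shares overlapped between lost regions with and without earlier acetylation. Among 3320 lost regions with H3K27ac in every ESC library, 5.36% to 7.20% were listed in the CM libraries, and among 1753 with H3K27ac in no ESC library (25.9%, against 68.4% of all union regions), 5.70% to 6.79%.

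**Figure D3:**
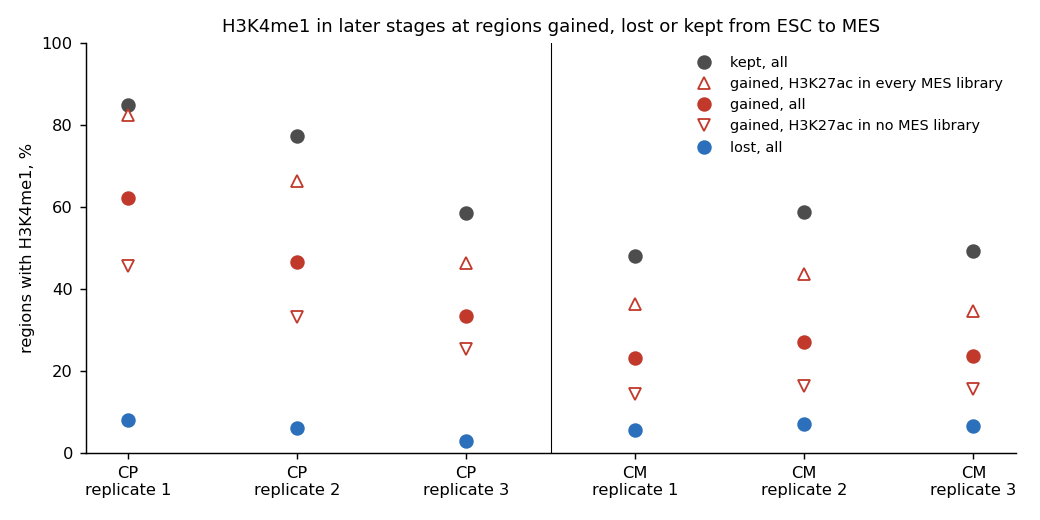
Percent of gained, lost and kept regions listed with H3K4me1 in each CP and CM library. Circles are whole classes and triangles gained regions with H3K27ac in every (up) or no (down) MES library, which lie above and below all gained regions in each of the 6 libraries.

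Kept regions, the longest class, carried H3K27ac and H3K4me3 at larger shares than gained or lost regions in each ESC and MES library when all lengths were pooled. H3K27ac was listed at 81.6% and 61.2% in ESC and at 67.2% and 53.9% in MES, and H3K4me3 at 74.3% and 70.1% in ESC and at 56.2% and 50.0% in MES. At equal length this order was not general for H3K27ac. From 2000 to under 5000 bases it was listed at 89.4% and 77.0% of lost and 88.8% and 64.9% of kept regions in ESC, and at 5 kb or more at 94.5% and 74.7% of gained and 90.4% and 68.1% of kept regions in MES. Over all kept regions, the H3K27ac libraries of both stages overlapped, and those of H3K4me3 did not (both exact permutation p = 0.0571, adjusted 0.183). With an equal number of top H3K4me3 regions per library the mean shares were 44% in ESC and 45.9% in MES, so the direction for H3K4me3 turned with list size. H3K4me1 was in every CP and CM library at 1067 kept regions (30.2%), against 4.24% of all union regions, and in none at 311 (8.80%), against 57% of all.

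Since presence could not differ within the kept class, its peak heights could be tested. After each library was centred on its median kept region, limma with Benjamini-Hochberg adjustment over 3534 regions called 637 regions (18.0%), of which 417 (11.8%) were higher in MES and 220 (6.23%) lower. The higher share of the called was 65.5% with this centring, 51.4% with quantile normalization (328 and 310) and 88.1% without centring (52 and 7), so the balance between higher and lower depended on the scaling. The median log2 change was 0.60 among the higher and -0.64 among the lower regions, and the median standard error over all kept regions was 0.16. The count was 334 without ESC replicate 2, 179 without ESC replicate 3, 329 without MES replicate 2 and 360 without MES replicate 3. A height under the lowest listed value is not seen in a kept region, which limits the size of these changes.

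The largest increase was at chr10:79391501-79397525 (6025 bases). Its height was 41, 49 and 39 in ESC replicates 1, 2 and 3 and 131, 149 and 155 in MES. In ESC these were percentiles 43.5, 29.2 and 14.3, and in MES all 3 were above 99. The log2 change was 1.73 ± 0.15 (SE; limma adjusted p = 0.000136). H3K27ac and H3K4me3 were listed there in no ESC library and in both libraries of MES, CP and CM. The next was chr11:84519351-84526950, with heights of 46, 39 and 41 in ESC and 102, 125 and 117 in MES (log2 change 1.42 ± 0.19; limma adjusted p = 0.00188).

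Further increases of similar size were at chr2:170169026-170173300 (log2 change 1.41), chr4:125264326-125272575 (1.39) and chr11:116669876-116677725 (1.36). Their limma adjusted p-values ran from 0.00163 to 0.00628. In the ESC libraries the last one was listed with 73, 47 and 42, and in the MES libraries with 122, 150 and 141. The listed ESC and MES heights overlapped at none of these 5 regions, which their choice by change in height favours. All 5 had H3K27ac in at least 1 MES library, and 3 of them in no ESC library. Over all kept regions, H3K27ac was in no MES library at 25.3% and in no ESC library at 15.0%.

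The largest decrease was at chr17:57007726-57013350 (5625 bases). Its height was 91, 99 and 110 in ESC and 36, 38 and 45 in MES, a log2 change of -1.36 ± 0.18 (SE; limma adjusted p = 0.00188). The next was chr10:126700951-126703125, with 79, 106 and 93 in ESC and 44, 43 and 36 in MES (log2 change -1.20 ± 0.20; limma adjusted p = 0.00413). At chr6:100278276-100283800 (log2 change -1.19), H3K27ac and H3K4me3 were listed in both ESC libraries and in no later library, and H3K4me1 was in no CP or CM library. The other two were chr9:88378201-88380575 (-1.14) and chr2:59889101-59891950 (-1.08). Listed ESC and MES heights were separate at all 5, which their choice by change in height favours. All 5 had H3K27ac in at least 1 ESC library, and only 15.0% of all kept regions had it in none.

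**Figure D4:**
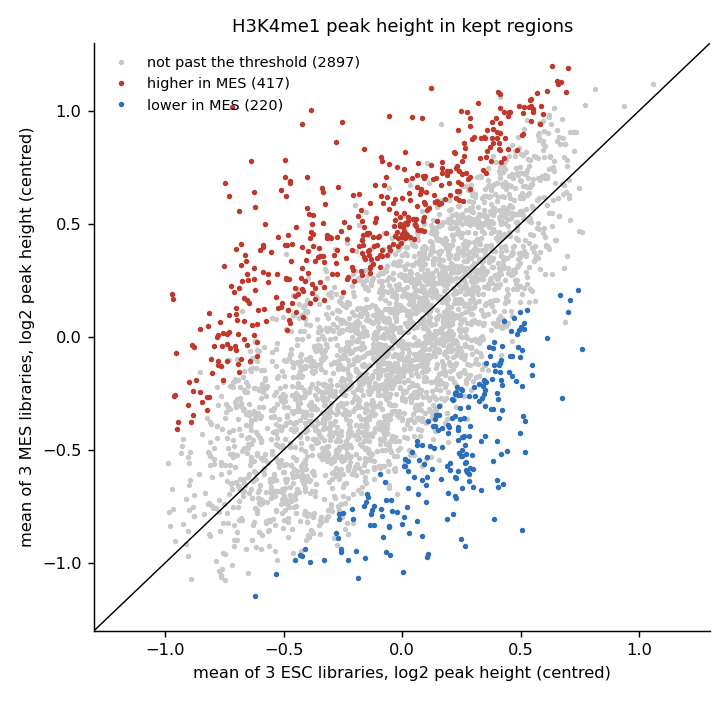
Mean log2 peak height of the 3 MES libraries against that of the 3 ESC libraries for each of 3534 kept regions, each library centred on its median kept region. Coloured points passed limma at adjusted p under 0.05, with 417 higher in MES above the diagonal and 220 lower below it.

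Acetylation calls at these kept regions went with the direction of the H3K4me1 height. At the 417 higher regions, H3K27ac was listed in 79.4% and 48% in ESC and in 90.4% and 78.7% in MES. At the 220 lower regions it was listed in 90.0% and 77.7% in ESC and in 44.1% and 29.5% in MES. At the 2897 regions that did not pass, the shares were 81.3% and 61.9% in ESC and 65.7% and 52.2% in MES. The lower regions also had H3K4me3 at 76.8% and 78.2% in ESC and at 29.1% and 31.8% in MES, and RNAPII Ser5P at 50.5% in ESC and at 5.91% and 22.3% in MES. Regions that did not pass had smaller falls. Their H3K4me3 shares were 74.3% and 70.5% in ESC and 55.2% and 50.1% in MES. Their RNAPII Ser5P shares were 38.6% in ESC and 13.6% and 25.6% in MES. At the higher regions H3K4me3 was at 72.4% and 63.5% in ESC and 77.5% and 58.5% in MES. RNAPII Ser5P was there at 30.0% in ESC and 24.9% and 33.8% in MES. No test was made on these shares.

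The later stages showed the same division. H3K4me1 was in every CP library at 73.4% of the higher and 30.9% of the lower regions, against 52.5% of all kept regions. It was in no CP or CM library at 2.40% of the higher and 20.5% of the lower regions, against 8.80% of all kept. In CM it was listed at 60.9%, 65.0% and 64.7% of the higher and at 37.7%, 48.6% and 44.1% of the lower regions. The higher set was above the lower set in each of the 6 later libraries.

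Covered length, the bases of a kept region that a library listed, was tested in the same way. Limma called 249 of 3534 kept regions (7.05%), 110 longer and 139 shorter in MES. Of these, 74 were also higher and 69 also lower in peak height, and 1 was higher but shorter. This count rested on single libraries. It was 152 without ESC replicate 2, 380 without MES replicate 1, and 5 without MES replicate 2 or MES replicate 3. Without ESC replicate 3 limma called 0, with 674 regions at an unadjusted p under 0.05.

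Gained and lost regions were grouped along the chromosomes, each with its own kind. The nearest union region was gained for 19.5% of gained regions (95% Wilson interval 18.7% to 20.2%), where gained regions are 6.77% of the union, and lost for 0.596%. The nearest union region was lost for 21.2% of lost regions (20.2% to 22.2%), where lost regions are 4.20% of the union, and gained for 0.708%. Without replicate 1 at both stages these same-class shares were 43.6% and 34.6%, where gained regions were 23.2% and lost regions 12.1% of a smaller union. The intervals cover counting error only, and neighbouring regions are not independent. Another gained region lay within 50 kb of 71.2% of gained regions, against 45.6% of all union regions, and another lost region within 50 kb of 71.4% of lost regions, against 34.6% of all. A single broad enriched domain can be listed as several regions. With regions closer than 1 kb merged, the nearest region was lost for 11.9% of lost regions, so that share depended on how domains were split.

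Chained at distances up to 50 kb, the gained regions formed 5401 clusters. Of the gained regions 51.8% lay in clusters of 3 or more, and of the lost regions 51.9%, in 3349 clusters. For kept regions, the smallest class, the share was 30.0%. Larger classes chain more readily, so these shares do not rank the classes by grouping. The largest gained cluster, at chrX:96343351-96855575, spanned 512 kb and held 53 gained regions, 9 kept and 1 lost. H3K27ac was in every ESC library at none of the 53 and in every MES library at 11. The latter held for 24.7% of all gained regions and 10.1% of all union regions. H3K4me1 was in every CP library at 18 and in every CM library at 8. The shares were 26.8% and 14.5% of all gained regions, and 9.37% and 8.50% of all union regions. This stretch was not empty of H3K4me1 in ESC, where the libraries listed 53, 33 and 36 regions in it, against 167, 129 and 132 in MES. The stretch was chosen for its gained regions, so the direction of this difference follows from the choice and carries no test.

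The next gained clusters had 18 regions each, at chr1:130427801-130584675 and chr11:84351101-84561950. In the first no lost or kept region lay between them, and H3K4me1 was in every CP library at 1 of the 18 and in every CM library at none. In the second, H3K4me1 was in every CP library at 8, against 26.8% of all gained regions, and in every CM library at 1. It also holds the kept region chr11:84519351-84526950 with the second largest increase in height.

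The largest lost cluster, at chr10:5968101-6286225, spanned 318 kb with 29 lost regions, 1 gained and none kept. H3K27ac was in every ESC library at 16 of the 29, against 12.3% of all union regions. RNAPII Ser5P was in the ESC library at 16 (against 11.1%) and H3K4me3 in every ESC library at 12 (against 20.5%). The others, at chr11:88748826-88936125 and chr16:8706601-8882450, had 21 lost regions each and no gained one. H3K27ac was in every ESC library at 15 and 14 of them, and in every MES library at none. RNAPII Ser5P in ESC was at 7 in the former and 17 in the latter.

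**Figure D5:**
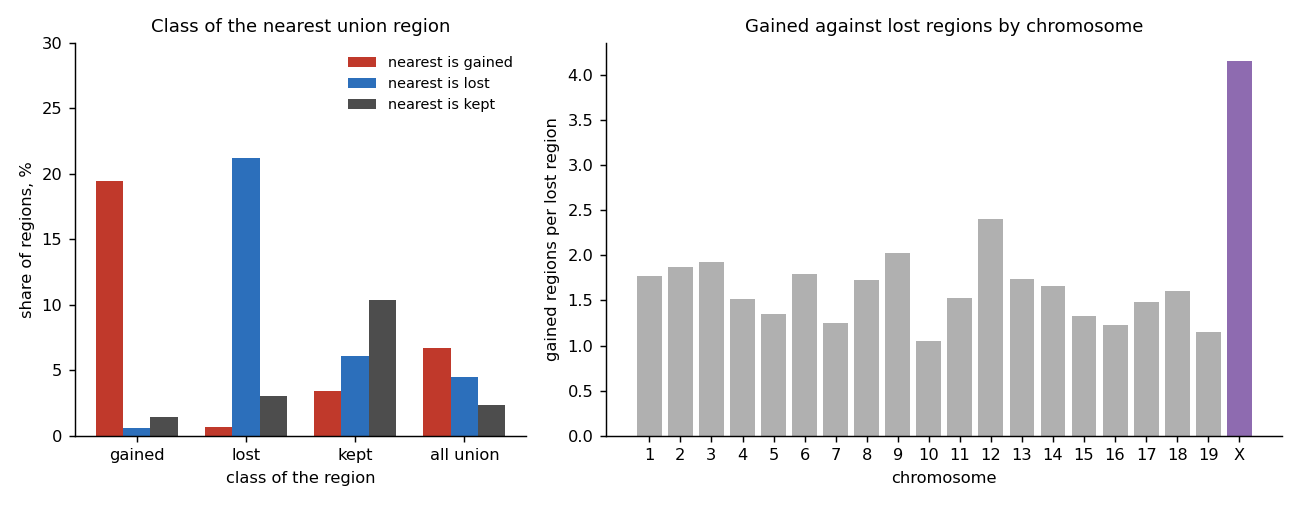
Left, percent of gained, lost, kept and all union regions whose nearest union region is gained, lost or kept. Right, gained regions per lost region on each chromosome, from 1.05 to 2.40 on the autosomes and 4.15 on X.

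Chromosomes differed in the balance of the classes. The number of gained regions per lost region was between 1.05 on chromosome 10 and 2.40 on chromosome 12 among autosomes, and 1.58 over all of them. On chromosome X, singled out after the values were seen, it was 4.15, with 311 gained and 75 lost regions, and 3.49 without the largest cluster. The share of each library's regions on X was 0.898%, 2.77% and 1.88% in ESC and 1.37%, 3.24% and 3.27% in MES. These ranges overlapped (exact two-sided permutation p = 0.5, n = 3 each), and replicate 1 had the lowest share at both stages.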

How the data were processed

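Reads were aligned with Bowtie to mm9, per the submitters' processing notes, without a version. The caller of the regions is not given in the sources used here. Lists were made for each library separately. The authors' lists give lengths in bases, and their peak heights and totals of target and background were treated as signal, since the scaling is not stated, and the lowest ratio of target total to background total in the 6 H3K4me1 lists was 5. Read depth is unknown, so no counting interval was given for a library, and the number of libraries limits precision. The H3K4me1 list of ESC replicate 1 lacks a header, and its columns were taken in the order used elsewhere. The labels list 54 libraries, of which 46 have a region list and 8 are whole cell extract, not used here. H3K27ac CM libraries were grouped by title, since their cell type label names stem cells.

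Groups follow the labelled target and stage. Replicates are called biological in the series' design text, but nothing says which came from separate cultures, so p-values measure the spread between these libraries. Regions were joined when they overlapped, and 1 shared base sufficed for presence. Peak height in a union region was the highest listed value, and covered length the sum of listed bases. Kept regions were fitted with limma 3.58.1 (R 4.3.3; eBayes with trend) on log2 values centred on each library's median, with an adjusted p under 0.05 as the threshold. Shares were compared by exact permutation over libraries. The code was tested on simulated data. Python was 3.11.15, with scipy 1.17.1, pandas 2.3.3 and numpy 2.4.6.

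The members and lists were chosen with earlier results of these data known. Regions named are the 6 longest and the 6 highest (mean percentile) gained and lost regions, the 5 kept regions with the largest called change in each direction, and the 3 largest gained and lost clusters. Gene lists and motifs were laid out for mm9 annotation and sequence, which were not used here. Alternatives were equal numbers of top regions, merging under 1 kb, leaving out regions under 500 bases, 2 of 3 libraries, 50% overlap, other scalings, a low-value filter, 20 kb, a replicate block and each library or replicate number left out. The length class and the counts without chromosome X were added after the data were seen.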

Additional observations from a re-analysis of the deposited data

How the results depend on the processing

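Of 203 alternatives over 28 results, 153 kept the direction and the side of the threshold or the size (in several designs no p can pass 0.05), 48 moved the result and 2 changed its sign. Gained regions numbered 6528 with regions under 500 bases left out and 22042 with 2 of 3 libraries, and 11177 to 22451 with a library or a replicate number left out. Lost regions numbered 4048 with equal top regions, 2959 with short regions left out and 17682 with 2 of 3 libraries, and 7039 to 13472 with a library or number left out. Of the gained regions, 51.9% held a region still called gained with equal top regions and 44.9% with short regions left out, and of the lost regions 44.9% and 31.6%. Kept regions called for height numbered 59 without centring and 293 with short regions left out, and 179 to 706 with a library left out. Those called for covered length numbered 155 with short regions left out, and 0 to 380 with a library left out. Among class shares, 83 of 84 alternatives kept their direction, and the exception was H3K4me3 at kept regions with equal top regions (1.87 points from ESC to MES). These counts include the replicate block, which changes only the p of a share or total. Its direction could not change, here or among the 153. For gained minus lost, H3K27ac ran from 85.1 to 100.2 points with a replicate number left out, and RNAPII Ser5P was 22.1 without replicate 1. With equal top regions in the other mark, gained minus lost was 62.9 points for H3K27ac (92.6 as listed), 10.9 for RNAPII Ser5P (23.8) and 9.38 for H3K4me3 (31.0). The difference between CM and CP at lost regions ran from -0.701 points without replicate 3 to 2.35 without replicate 1. The nearest region was of the same class for 23.0% to 43.6% of gained and 24.4% to 34.6% of lost regions with a replicate number left out, and for 11.9% of lost regions with merging. Shares within 50 kb ran from 76.4% to 83.2% (gained) and from 75.2% to 82.3% (lost) with a number left out, were 63.9% and 53.5% with merging, and were 54.6% and 59.99% within 20 kb. The cause of these moves was not tested. The 50% overlap of the shorter region could not change the calls, since a union region contains each listed region.

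Replicate numbers paired the H3K4me1 libraries at most in part. Deviations of same-numbered ESC and MES libraries over kept regions correlated at 0.312, 0.252 and 0.00435. ESC replicate 1 correlated at -0.219 and -0.250 with MES replicates 2 and 3. ESC replicate 2 correlated at 0.249 with MES replicate 3, close to its own number, and ESC replicate 3 did not correlate best with its own number. With a replicate block, limma called 865 kept regions for height and 343 for covered length, and no test on shares passed adjustment (lowest adjusted p 0.133). For RNAPII Ser5P no value without replicate 2 was possible, as it is the only ESC library.

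Depth is unknown and no control list exists among the files used here, so absence from a list is not absence of the mark. With 2 or 3 libraries per stage, exact tests between pairs of stages cannot pass 0.05.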
